A study of Mus musculus with 2 samples.

Results

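The Iroquois genes Irx1 to Irx6 encode homeodomain transcription factors of the TALE class, which carry extra residues between the helices of the homeodomain. In mammals they lie in 2 genomic clusters, with Irx1, Irx2 and Irx4 in one and Irx3, Irx5 and Irx6 in the other, and neighbouring members often share enhancers and sites of expression. They pattern the neural tube, limb, gut and lung epithelium, and in the heart they act in chamber identity and in conduction. Here the members were taken by name: all 6 were listed in both count matrices, among 16388 genes shared by the matrices, and 4 of them had counts at both stages.

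Wild-type (WT) mouse embryos gave the cells, taken from the second heart field, a pool of progenitors outside the early heart that lengthens the heart tube, and the labels call them Osr1+ cells. No allele, Cre driver or treatment is named, and all groups share the wild-type genotype. The E9.5 sample held 54 anterior, 61 middle and 418 posterior cells, and the E10.5 sample 31 outflow tract, 45 anterior, 331 middle and 560 posterior cells. Each of these 7 sets is called a library here, after the barcode suffix that marks the dissected position. There was 1 sample per stage, with no record of how many embryos were pooled, so a position was measured once at each stage. The p-values for position measure only the spread between these samples, which may be technical.

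Cells with at least 1 Epcam UMI (a molecule counted by its barcode) are called Epcam-positive; Epcam encodes an adhesion molecule of epithelia. There were 325 Epcam-positive and 1175 Epcam-negative cells among 1500. By library the Epcam-positive share was 70.4% (anterior), 37.7% (middle) and 26.3% (posterior) at E9.5, and 16.1% (outflow tract), 2.22% (anterior), 8.76% (middle) and 21.2% (posterior) at E10.5. The other 15 markers of foregut or pharyngeal epithelium summed to 1082 to 2041 CPM (a gene's UMIs scaled to the total UMIs of the cells summed) in the Epcam-positive sums of at least 5 cells and to 20.2 to 495 CPM in the Epcam-negative sums. All 16 markers of the list, Epcam included, were higher in Epcam-positive cells in the fit between the classes. Epcam itself chose the classes. Total counts ran from 196584 (E10.5 outflow tract) to 13647039 (E9.5 posterior) per library. The median cell had 30202 UMIs at E9.5 and 5371 UMIs at E10.5, so shares of cells with a UMI are not comparable between stages without thinning. Every cell had at least 1 Osr1 UMI, and 1 cell barcode occurred in 2 libraries (E10.5 middle and posterior).

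On GRCm38 (mm10), the chromosome 13 cluster spans 1312 kb, with Irx1 at chr13:71957921-71963723 (minus strand), Irx2 at chr13:72628820-72634198 (plus) and Irx4 at chr13:73260479-73269608 (plus). The chromosome 8 cluster spans 882 kb, with Irx3 at chr8:91798525-91802067 (minus), Irx5 at chr8:92357625-92376286 (plus) and Irx6 at chr8:92674288-92680956 (plus). Exons of Irx3 overlap the antisense gene Irx3os, and exons of Irx6 overlap Gm45505, each on the opposite strand. The sources used here do not say whether counting used strand, so reads of these pairs may not be told apart. Irx3os had 24 counts in all, against 742 for Irx3.

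Upstream sequences are shown for a pair of genes of the chromosome 13 cluster that differ in where they were detected, Irx2 with counts in every library and Irx4 with counts in 1. They are RefSeq promoter sequences (GRCm38.p6) on the plus strand, ending at the last base before the first annotated exon base; capitals mark each CG dinucleotide. The Irx2 sequence is the 250 bases at chr13:72628570-72628819, and the Irx4 sequence the 232 bases at chr13:73260247-73260478.
Irx2: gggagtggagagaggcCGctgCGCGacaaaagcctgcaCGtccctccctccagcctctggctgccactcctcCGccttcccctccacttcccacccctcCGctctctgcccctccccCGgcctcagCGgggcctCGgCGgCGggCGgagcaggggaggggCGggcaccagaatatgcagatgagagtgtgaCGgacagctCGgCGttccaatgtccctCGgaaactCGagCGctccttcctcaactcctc
Irx4: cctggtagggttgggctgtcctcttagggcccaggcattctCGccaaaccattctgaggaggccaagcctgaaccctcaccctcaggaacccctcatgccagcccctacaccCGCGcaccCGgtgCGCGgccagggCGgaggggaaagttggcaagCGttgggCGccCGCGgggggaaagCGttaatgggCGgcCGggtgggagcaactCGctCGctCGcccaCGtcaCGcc
Both are rich in CG. Over the 250 bases before the RefSeq start, Irx2 had 19 CG and Irx4 22, against a median of 6 over 32851 promoter windows; 80.3% and 85.2% of windows had fewer. Each held 2 matches to the GC box GGGCGG (either strand), which 32.7% of all windows held at least once. Neither held the Iroquois palindrome ACANNTGT (6.31% of windows), the T-box core AGGTGT (11.8%), the Gli site TGGGTGGTC (0.225%) or TATAAA (12.4%). A match is a description only, and no match says only that these letters are not in the window. Just upstream of the Irx2 sequence, at chr13:72628564, starts the noncoding gene Gm20554 on the minus strand. It had 7 counts in all 1500 cells, against 253 for Irx2.

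Irx1 was lowest in the posterior library at both stages. This gene of foregut and lung epithelium and of the ventricular septum was at 46.3 CPM in the anterior, 65.0 in the middle and 7.33 in the posterior library at E9.5. At E10.5 it was at 61.0 CPM in the outflow tract, 31.5 in the anterior, 66.6 in the middle and 4.06 in the posterior library. Both posterior libraries lay below every other library, and the 95% Poisson intervals of the E9.5 anterior (35.3 to 59.6) and middle (53.1 to 78.7) libraries overlapped. These intervals, like all intervals on counts and shares here, cover counting error only.

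Irx2, the neighbour that is often expressed with Irx1, peaked in the middle. It was at 12.3 (anterior), 49.97 (middle) and 6.01 CPM (posterior) at E9.5, and at 20.3, 11.8, 25.0 and 4.93 CPM in the E10.5 outflow tract, anterior, middle and posterior libraries. The middle library was highest and the posterior lowest at each stage. At E10.5 the outflow tract (4 counts) and anterior (3 counts) values cannot be ordered against the middle value at this depth, with intervals of 5.54 to 52.1 and 2.44 to 34.5 CPM.

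Irx3, which supports fast conduction in the ventricular conduction system, was measured at E9.5 at 67.9 CPM (anterior), 86.8 CPM (middle) and 31.8 CPM (posterior). At E10.5 it was at 20.3 CPM in the outflow tract, 15.8 in the anterior, 22.5 in the middle and 7.83 in the posterior library. Within each stage the posterior library was lowest, but the E9.5 posterior library lay above every E10.5 library, so position groups overlap when stages are put together. The E10.5 outflow tract and anterior values rest on 4 counts each. Their intervals (5.54 to 52.1 and 4.29 to 40.3 CPM) overlapped that of the E10.5 posterior library (5.16 to 11.4 CPM).

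Irx5, which shapes the repolarization gradient of ventricular muscle, was measured at E9.5 at 24.7 CPM (anterior), 44.3 CPM (middle) and 9.97 CPM (posterior). Its E10.5 levels were 15.3 CPM in the outflow tract, 11.8 in the anterior, 13.2 in the middle and 4.35 in the posterior library, the first 2 from 3 counts each. The posterior libraries were again lowest at both stages. At E10.5 the posterior interval (2.43 to 7.17 CPM) overlapped those of the outflow tract (3.15 to 44.6 CPM) and anterior libraries (2.44 to 34.5 CPM). These are values for each gene along the libraries; the 3′-tag counts of different genes are not set against each other as levels.

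**Figure D1:**
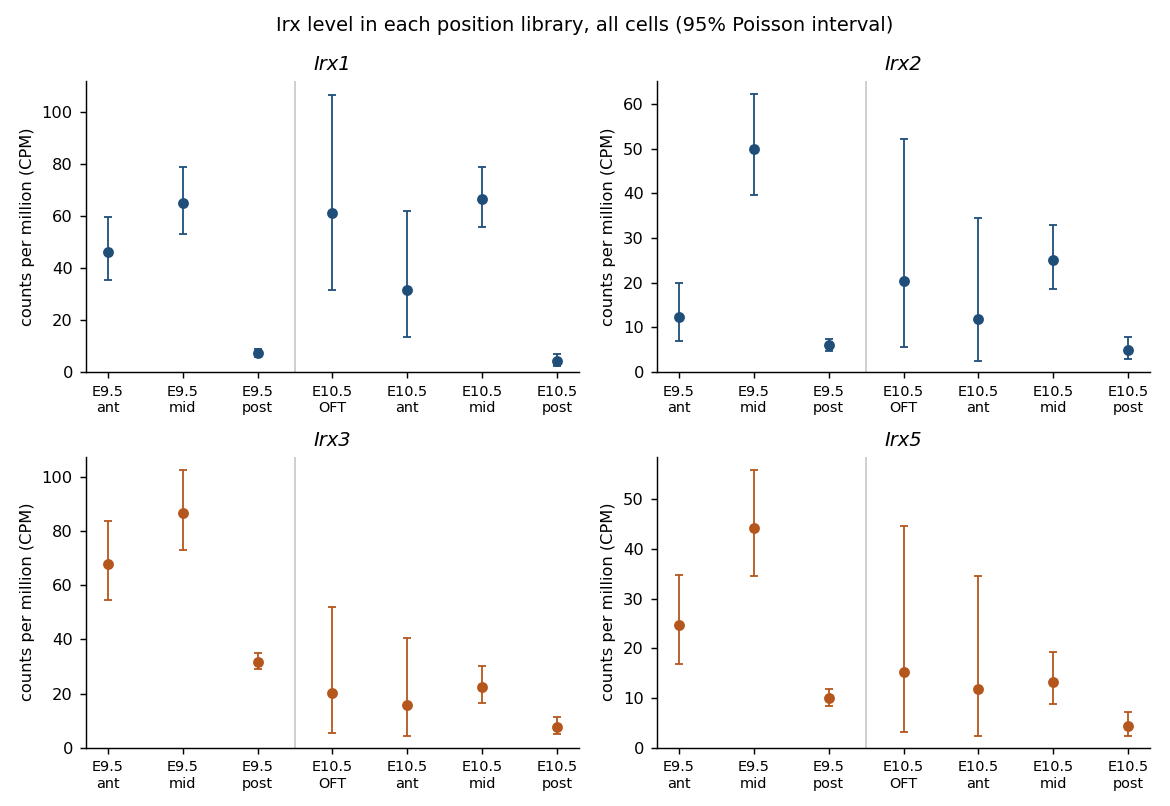
Level of 4 Irx genes (y axis, CPM) in the 7 position libraries (x axis; ant, anterior; mid, middle; post, posterior; OFT, outflow tract), all cells; points are library values and bars 95% Poisson intervals, which cover counting error only. Both posterior libraries of Irx1, at 7.33 and 4.06 CPM, lie below all other libraries of that gene.

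Irx4, a regulator of ventricular identity that represses atrial genes, was all but absent. Its 9 counts lay in 6 cells, all in the E9.5 anterior library, and no cell had more than 2. Of these 6 cells, 5 were Epcam-positive, 5 had Nkx2-5 (46 counts in all), a cardiac homeobox gene also expressed in pharyngeal endoderm, and 5 had Isl1, a marker of the second heart field and of foregut endoderm. None had Tnnt2, the cardiac troponin T gene, Irx1, Irx2 or Irx5, and 1 had Irx3. These cells were described after their values were seen. Scrublet, a doublet caller, marked 5 of the 6, in a library where it marked 57.4% of cells; a part of doublets in them was not tested. With 0 counts at E10.5, a level of up to 0.505 CPM is allowed by 3 counts of the total of that stage. By library, 3 counts allow up to 11.8 CPM in the E10.5 anterior and 15.3 CPM in the outflow tract library. Both bounds lie above the 6.94 CPM of Irx4 in the E9.5 anterior library, so whether its anterior level changed between the stages cannot be told. Irx6, known mainly from retinal bipolar cells, had 0 counts in all cells, which allows up to 0.133 CPM over both stages. Neither gene passed the filter on low counts of the main tests.

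Position was tested on counts summed per library with edgeR's quasi-likelihood test, on the 6 anterior, middle and posterior libraries, with the stage as a term. A gene was called at a Benjamini-Hochberg adjusted p under 0.05 over all genes tested. In all cells, posterior against anterior called 1 of the 4 tested Irx genes, where 0.295% of 9825 genes were called (0.142% lower and 0.153% higher); DESeq2 also called 1. Irx1 fell, by a log2 fold of −2.85 ± 0.37 (SE, 6 libraries, adjusted p = 0.0168). The edgeR test gives no SE, so SE here and in the figures is the size of the fold divided by the square root of the F value. Irx2 (−1.13 ± 0.47), Irx3 (−1.18 ± 0.30) and Irx5 (−1.39 ± 0.42) had folds below 0 that did not pass (adjusted p = 0.765, 0.297 and 0.488). The median of the 4 was −1.28, against 0.02 over all genes. The call of Irx1 was lost without the E9.5 anterior library (−2.60, adjusted p = 0.0707), with each cell thinned to 4500 UMIs (adjusted p = 0.0706) and without the stage term (adjusted p = 0.794). Irx3 was called without the E10.5 posterior library (−1.14, adjusted p = 0.0193).

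Posterior against middle called 2 of the 4, where 0.193% of genes were called (0.0509% lower and 0.142% higher). Irx1 fell by a log2 fold of −3.58 ± 0.33 (adjusted p = 0.00288, edgeR) and Irx2 of −2.81 ± 0.36 (adjusted p = 0.0188). Both are members of the chromosome 13 cluster. Irx3 (−1.55 ± 0.26, adjusted p = 0.0791) and Irx5 (−1.998 ± 0.35, adjusted p = 0.0867) did not pass in all cells. DESeq2 called 3 of the 4, Irx3 with an adjusted p of 0.0494. Irx2 lost its call without the E9.5 middle library (−2.46, adjusted p = 0.228) and after thinning (adjusted p = 0.129), and Irx1 and Irx2 without the stage term (adjusted p = 0.901 and 1.00). Irx3 and Irx5 were called without the E9.5 anterior (adjusted p = 0.00158 and 0.000926), E10.5 anterior (0.000684 and 0.000414) or E10.5 posterior library (0.000318 and 0.000593), and Irx3 without the E9.5 posterior library (adjusted p = 0.0266).

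Middle against anterior called 0 of the 4 by edgeR or DESeq2, with 1 at an unadjusted p under 0.05 (Irx2), and 0% of 9825 genes by edgeR (345 unadjusted). The folds were all above 0, and Irx2 had the highest at 1.68, with 12.3 and 11.8 CPM in the anterior and 49.97 and 25.0 CPM in the middle libraries. Without the E10.5 posterior library this fold was 1.78 with an adjusted p of 0.0273. The outflow tract was dissected at E10.5 only and has no test. Against the E10.5 anterior library the fold was 1.94 for Irx1 (exact conditional interval 0.728 to 5.46), 1.72 for Irx2 (0.291 to 11.8), 1.29 for Irx3 (0.241 to 6.93) and 1.29 for Irx5 (0.173 to 9.64), so no difference was detectable at this depth.

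In Epcam-negative cells alone, all 4 tested genes fell from middle to posterior. The Irx1 level was 34.1 CPM in the middle and 3.99 in the posterior cells at E9.5, and 60.02 and 2.35 CPM at E10.5. Irx2 was at 15.8 and 1.74 CPM at E9.5, and at 23.9 and 1.96 CPM at E10.5. Middle and posterior values of these genes do not overlap. Irx3 was at 128 and 34.4 CPM at E9.5, and at 19.2 and 5.10 CPM at E10.5. Irx5 was at 64.5 and 10.1 CPM at E9.5, and at 11.7 and 4.70 CPM at E10.5. Within each stage the posterior value of each gene was lower; for Irx3 the E9.5 posterior value exceeded the E10.5 middle value.

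The fitted log2 folds were −3.75 ± 0.43 for Irx1 (adjusted p = 0.000855), −3.38 ± 0.55 for Irx2 (adjusted p = 0.0127), −1.94 ± 0.28 for Irx3 (adjusted p = 0.00459) and −2.24 ± 0.41 for Irx5 (adjusted p = 0.0290; edgeR, 6 libraries). Of 8950 genes, 0.369% were called here and 0.168% were lower. The 4 members had a median of −2.81, against 0.01 over all genes. The call of Irx1 held under all 14 alternatives run, with adjusted p up to 0.00793. The other calls rested on single libraries, in fits where a position or stage then keeps 1 library that is assumed to vary like the others. Irx2 lost its call without the E9.5 middle (adjusted p = 0.135), E10.5 middle (−3.28 ± 2.09) or E10.5 posterior library (adjusted p = 0.0903), Irx3 without the E9.5 middle library (adjusted p = 0.281), and Irx5 without the E9.5 middle (−1.49) or E9.5 posterior library (adjusted p = 0.308) and with DESeq2 (adjusted p = 0.156). Thinning kept the sign and ended the calls of Irx2 (adjusted p = 0.237), Irx3 (adjusted p = 0.122) and Irx5 (adjusted p = 0.0962).

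Markers of other cells moved with position in these Epcam-negative sums. The 9 cardiomyocyte markers in the matrices summed to 528 CPM in the middle (6 detected; Tnnc1, Actn2 and Myh6 at 0) and 2622 CPM in the posterior cells (9 detected) at E9.5, and to 45.5 (7 detected; Myh6 and Myh7 at 0) and 105 CPM (8 detected; Myh7 at 0) at E10.5. The 7 lung or foregut mesenchyme markers summed to 307 CPM (4 detected; Barx1, Nkx6-1 and Tbx4 at 0) and 600 CPM (7 detected) at E9.5, and to 490 and 1278 CPM, with all 7 detected, at E10.5. The 15 epithelial markers other than Epcam summed to 192 and 345 CPM at E9.5, and to 53.6 and 142 CPM at E10.5. Other lists fell or went both ways. The 5 somite or muscle markers summed to 60.9 (middle) and 25.0 CPM (posterior) at E9.5, and to 53.0 and 16.5 CPM at E10.5. Neural sums were 17.0 and 14.7 CPM, then 39.6 and 9.80 CPM. Erythroid sums were 34.1 and 71.0 CPM, then 6013 and 2381 CPM. Of 11 second heart field markers tested, 2 were called lower (Tbx1 and Fgf8) and 0 higher, with 0.369% of genes called. The part of these cells in the folds was not tested. Cells with at least 7 cardiomyocyte markers, a cut chosen after the data were seen, numbered 31 at E9.5, 29 of them posterior. An Irx1 UMI was found in 3.23% of them (1 cell; exact 95% interval 0.0816% to 16.7%) and an Irx2 UMI in 0 of 31 (exact upper bound 11.2%), at a median of 32904 UMIs. In Epcam-negative posterior cells at E9.5 the shares were 8.77% for Irx1 and 5.19% for Irx2, at a median of 30876 UMIs and within those intervals. Of the 27 posterior Epcam-negative cells with Irx1, 10 had 2 or more UMIs. Free RNA may add to these UMIs, and its part was not tested.

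Posterior against anterior in Epcam-negative cells called 1 of the 4, where 0.335% of 8950 genes were called (0.201% lower and 0.134% higher). Irx1 fell by a log2 fold of −3.12 ± 0.58 (adjusted p = 0.0309). The anterior level was 26.2 against a posterior 3.99 CPM at E9.5, and 32.4 against 2.35 CPM at E10.5. Irx3 was close to the threshold (−1.73 ± 0.35, adjusted p = 0.0522), with 102 against 34.4 CPM at E9.5 and 16.2 against 5.10 CPM at E10.5. It was called when classes were set by 5 epithelial genes (−2.04, adjusted p = 0.0235), and without the E10.5 anterior (adjusted p = 0.00292), E10.5 middle (adjusted p = 0.0267) or E10.5 posterior library (adjusted p = 0.00176). Irx2 (−2.25 ± 0.91, adjusted p = 0.593) and Irx5 (−1.78 ± 0.56, adjusted p = 0.346) did not pass. The E9.5 anterior sum held 16 Epcam-negative cells, and the call of Irx1 was lost after thinning (−3.17, adjusted p = 0.0782).

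Irx1 and Irx2, of the chromosome 13 cluster, rose in Epcam-positive cells, and Irx3 and Irx5, of the chromosome 8 cluster, did not pass the test. The fit compared the classes within 6 libraries that held at least 5 cells of each, with the library as a term. These libraries come from 2 stage samples. Libraries of 1 stage share a sample, so the p-values measure only the spread between libraries. The E10.5 anterior library, with 1 Epcam-positive cell, was left out. Irx1 was at 53.5 against 26.2 CPM (anterior), 97.5 against 34.1 (middle) and 15.7 against 3.99 (posterior) in Epcam-positive against Epcam-negative cells at E9.5. At E10.5 it was at 102 against 60.02 CPM (middle) and 8.91 against 2.35 (posterior). Every library with at least 10 cells of each class was higher in Epcam-positive cells. The E9.5 anterior fold of 2.04 had an exact interval of 0.996 to 4.72, which includes no difference.

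Irx2 was at 14.7 against 5.82 CPM (anterior), 85.9 against 15.8 (middle) and 16.8 against 1.74 (posterior) at E9.5, and at 30.8 against 23.9 (middle) and 13.4 against 1.96 CPM (posterior) at E10.5. Again all 5 of these libraries were higher in Epcam-positive cells, but not all beyond counting error. The E9.5 anterior fold was 2.52 (exact interval 0.579 to 22.9, on 14 and 2 counts) and the E10.5 middle fold 1.29 (0.575 to 2.61). The 5 Epcam-positive outflow tract cells had 0 counts of any Irx gene, which allows up to 98.5 CPM each. The fitted folds were 1.34 ± 0.25 for Irx1 (adjusted p = 0.00131) and 2.15 ± 0.34 for Irx2 (adjusted p = 0.000195; edgeR, 12 sums of 6 libraries). These 2 of 4 calls stand beside 5.23% of 8859 genes called, 3.3% higher and 1.93% lower. Markers of other cells moved with the class: the 3 hepatoblast markers tested (Afp, Ttr and Apoa2, of 6) rose in Epcam-positive cells, 3 of 6 lung or foregut mesenchyme markers (Foxf1, Wnt2 and Nkx6-1) fell, and of 6 mesothelium or epicardium markers Krt19 rose and Tbx18, Tcf21 and Aldh1a2 fell. The 6 hepatoblast markers summed to 226 against 10.6 CPM in the E9.5 posterior and 905 against 140 CPM in the E10.5 posterior library, and to at most 33.4 CPM in either class of the other libraries, with Afp, Alb and Hnf4a at 0 there. Their part in the folds was not tested. Leaving out any library kept both calls, with adjusted p up to 0.0219 and 0.00735. Thinning ended the call of Irx1 (1.20, adjusted p = 0.226) and left Irx2 untested, and a fit without the library term ended both (0.91 and 1.67, adjusted p = 1.00 and 0.813).

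Irx3 had 55.6 against 102 CPM (anterior), 43.6 against 128 (middle) and 25.3 against 34.4 (posterior) in Epcam-positive against Epcam-negative cells at E9.5, but 40.0 against 19.2 (middle) and 15.6 against 5.10 CPM (posterior) at E10.5. The 3 E9.5 libraries were thus lower and both E10.5 libraries higher in Epcam-positive cells. After thinning, with classes set anew, the E9.5 posterior library turned, to 49.9 against 38.2 CPM (11 and 62 counts). Irx5 had 21.0 against 34.9, 23.1 against 64.5 and 9.55 against 10.1 CPM at E9.5, and 21.5 against 11.7 and 3.34 against 4.70 CPM at E10.5. Its values went both ways at E10.5, on 7 and 3 Epcam-positive counts. The fitted folds over both stages were −0.45 ± 0.27 for Irx3 (adjusted p = 0.521) and −0.48 ± 0.28 for Irx5 (adjusted p = 0.500).

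**Figure D2:**
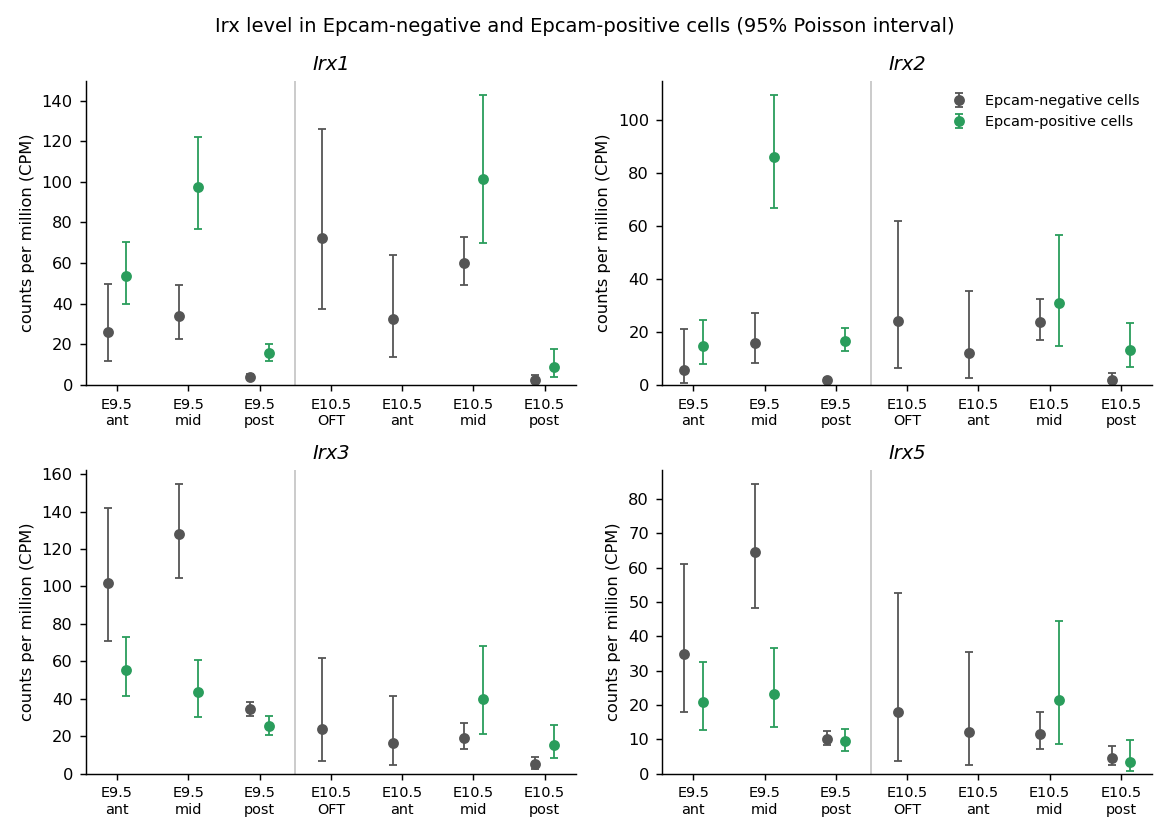
Level of 4 Irx genes (y axis, CPM) in Epcam-negative (grey) and Epcam-positive cells (green) of each position library (x axis; ant, anterior; mid, middle; post, posterior; OFT, outflow tract); points are sums over cells with 95% Poisson intervals, and classes under 10 cells are left out. Irx3 is lower in Epcam-positive cells of the 3 E9.5 libraries and higher in those of the E10.5 middle and posterior libraries.

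At E9.5 some Epcam-positive cells need not be epithelial: 12.9% of the 31 cells with at least 7 cardiomyocyte markers had an Epcam UMI (exact 95% interval 3.63% to 29.8%), against 33.3% of the other E9.5 cells, at medians of 32904 and 30103 UMIs. Counting a cell as positive only from 2 Epcam UMIs gave folds of 1.69 for Irx1 (adjusted p = 0.000965) and 2.62 for Irx2 (adjusted p = 0.000779), and classes by 5 epithelial genes 1.49 (adjusted p = 0.00172) and 2.57 (adjusted p = 7.78e-05). Irx3 and Irx5 did not pass under either rule.

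Whether the middle-to-posterior fold differed between the classes was tested with an interaction term in the middle and posterior libraries of both stages. As for the classes, p-values of this term measure only the spread between libraries. All 4 folds of the interaction were above 0, from 0.71 to 1.51, and 0 of 4 were called by edgeR or DESeq2. Of 9398 genes 0% were called, with 584 at an unadjusted p under 0.05, and DESeq2 called 1. Irx2 had the highest value (1.51 ± 0.60, adjusted p = 0.735) and was the 1 member with an unadjusted p under 0.05. Without the E9.5 middle library it was called (2.62, adjusted p = 0.0494), while Irx3 and Irx5 then turned to −1.34 and −1.16 without passing.

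**Figure D3:**
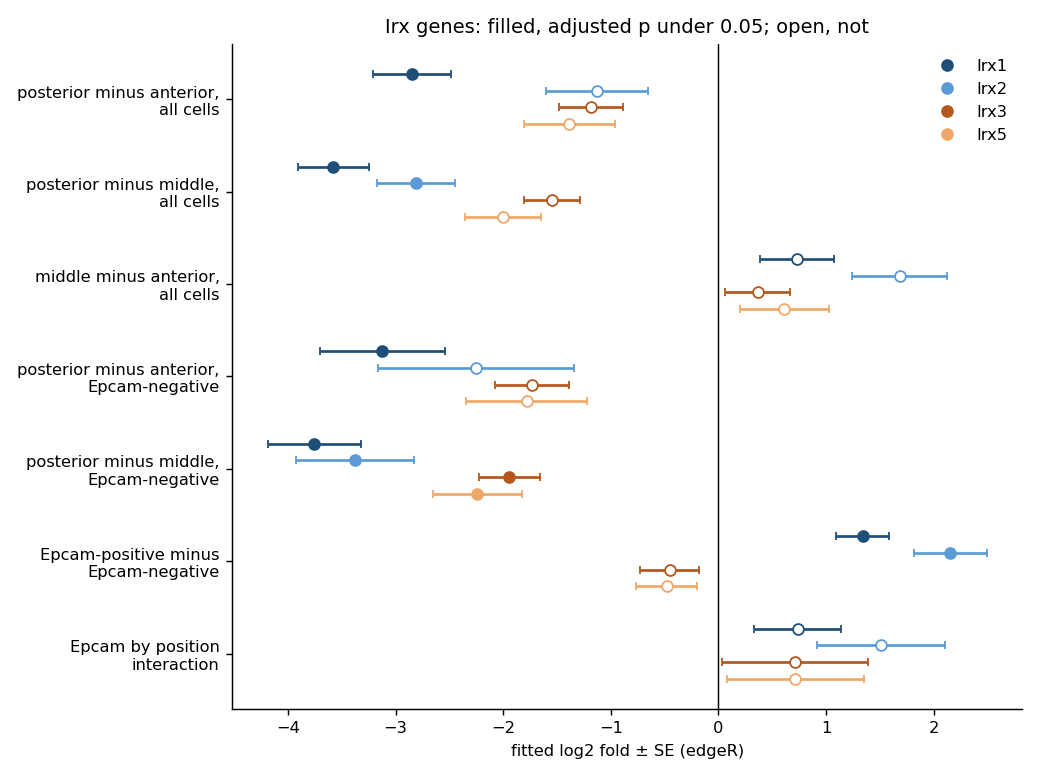
Fitted log2 folds of 4 Irx genes (x axis; bars are SE) in 7 comparisons (rows) with edgeR; filled points have an adjusted p under 0.05 over all genes tested. The row for posterior minus middle in Epcam-negative cells has 4 filled points, from −3.75 to −1.94.

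Irx3 had the largest difference of the 4 genes between the stage samples at each position in Epcam-negative cells. From E9.5 to E10.5 its level was 6.30-fold lower (exact interval 2.25 to 24.4) in the anterior, 6.65-fold lower (4.46 to 10.2) in the middle and 6.75-fold lower (3.89 to 12.8) in the posterior Epcam-negative cells. Irx5 was 2.88-fold (0.777 to 15.9), 5.54-fold (3.25 to 9.78) and 2.15-fold lower (1.18 to 4.31) at the same positions. In Epcam-positive cells Irx3 was 1.09-fold lower (0.561 to 2.25) in the middle and 1.62-fold lower (0.922 to 3.07) in the posterior library, with intervals that include no difference. With 1 sample per stage there is no test.

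Irx1 and Irx2 gave other values. In middle Epcam-negative cells Irx1 was 1.76-fold higher at E10.5 (1.15 to 2.78) and Irx2 1.51-fold higher (0.793 to 3.07). In posterior Epcam-negative cells Irx1 was 1.70-fold lower (0.713 to 4.90) and Irx2 1.13-fold higher (0.325 to 3.18), which is within counting error. In middle Epcam-positive cells Irx2 was 2.79-fold lower at E10.5 (1.43 to 6.09), and Irx1 was 1.04-fold higher (0.670 to 1.59). Stage cannot be told apart from sample, depth or sex: Xist, a transcript of female cells, had a UMI in 0.188% of E9.5 and 93.4% of E10.5 cells. After thinning to 4500 UMIs the Irx3 log2 fold in Epcam-negative cells was −4.01 in the anterior, −2.74 in the middle and −3.02 in the posterior library, against −2.65, −2.73 and −2.75 on all UMIs. That of Irx2 was 0.72 in the middle and −0.81 in the posterior library, against 0.59 and 0.17 on all UMIs.

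The share of all Irx UMIs that came from the chromosome 13 cluster sums up this difference. Its height depends on how each gene is captured, so only its change between libraries is read. In Epcam-negative cells it was 20.3% (anterior), 20.6% (middle) and 11.4% (posterior) at E9.5, and 69.6% (outflow tract), 61.1% (anterior), 73.1% (middle) and 30.6% (posterior) at E10.5. Over all Epcam-negative cells of a stage it was 14.6% at E9.5 (109 UMIs, with 640 from chromosome 8; exact 95% interval 12.1% to 17.3%) and 66.4% at E10.5 (182 and 92 UMIs; 60.5% to 72.0%). The posterior library gave 491 of the 749 Irx UMIs at E9.5, and the middle library 197 of the 274 at E10.5. These pooled values thus also differ in their make-up by position. At each shared position the E10.5 value was higher, with intervals that do not overlap. The posterior value was the lowest of its stage.

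In Epcam-positive cells the share was 50% (anterior), 73.3% (middle) and 48.3% (posterior) at E9.5, and 68.3% (middle) and 54.1% (posterior) at E10.5. Over all Epcam-positive cells it was 56.8% at E9.5 (52.7% to 60.8%) and 63.0% at E10.5 (52.8% to 72.4%), so its intervals overlapped. By library the E10.5 value was lower in the middle and higher in the posterior, also with overlapping intervals. The 15 epithelial markers other than Epcam summed to 192 to 495 CPM in Epcam-negative cells at E9.5 and to 20.2 to 142 CPM at E10.5. The classes were set at a median depth of 30202 UMIs per cell at E9.5 and 5371 UMIs at E10.5. The part of cells with these markers in the share was not tested.

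**Figure D4:**
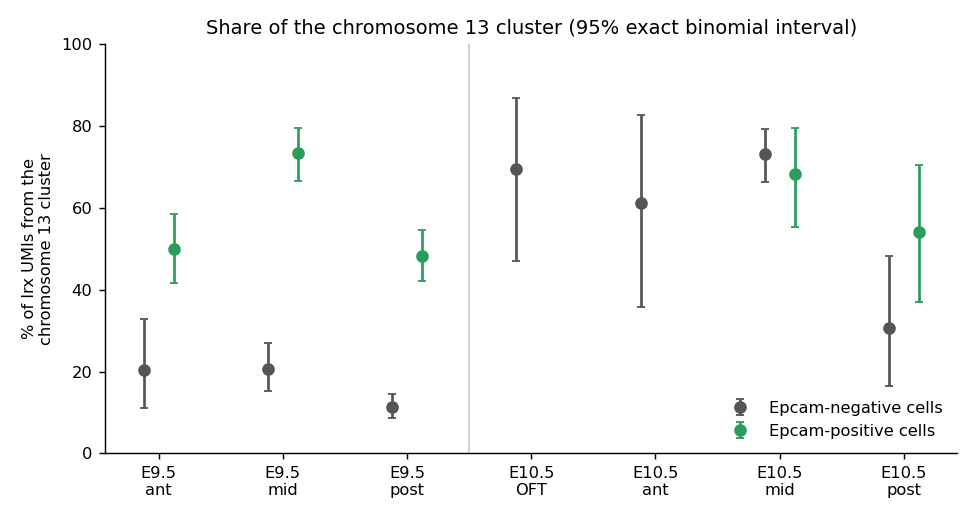
Percent of Irx UMIs that belong to Irx1, Irx2 or Irx4 (y axis) in Epcam-negative (grey) and Epcam-positive cells (green) of each position library (x axis; ant, anterior; mid, middle; post, posterior; OFT, outflow tract); bars are exact 95% binomial intervals for counting error, and classes under 10 cells are left out. In Epcam-negative cells the 3 E9.5 libraries lie at 11.4% to 20.6% and the 4 E10.5 libraries at 30.6% to 73.1%.

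Neighbours of 1 cluster were often detected in the same cells. At E9.5 in the posterior library, Irx2 had a UMI in 41.3% of the 63 cells with Irx1 (exact interval 29.0% to 54.4%) and in 6.48% of the 355 cells without it (4.15% to 9.56%). In the same library Irx5 had a UMI in 40.1% of the 162 cells with Irx3 (32.5% to 48.1%) and in 8.98% of the other 256 (5.78% to 13.2%). Between clusters, Irx3 was found in 58.7% of cells with Irx1 (45.6% to 71.0%) and in 35.2% of cells without it (30.2% to 40.4%). Median depth was 32686 UMIs in cells with Irx1 and 30829 in those without. The shares here and below take both Epcam classes together. In this library Irx1 had a UMI in 32.7% and Irx2 in 30% of Epcam-positive cells, against 8.77% and 5.19% of Epcam-negative cells. Irx3 had a UMI in 38.2% against 39.0%, and Irx5 in 23.6% against 20.1%. The part of the class difference in the shares was not tested.

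At E10.5 in the middle library, Irx2 had a UMI in 30.9% of the 68 cells with Irx1 (20.2% to 43.3%) against 6.08% of the others (3.52% to 9.69%), and Irx5 in 20.5% of the 39 cells with Irx3 (9.30% to 36.5%) against 5.82% (3.43% to 9.16%). After thinning, the E9.5 posterior shares were 14.3% against 2.02% for Irx2 by Irx1 and 11.5% against 2.58% for Irx5 by Irx3, and the E10.5 middle shares were 23.6% against 5.08% and 13.6% against 6.32%; the last pair, from 3 cells with both genes, does not separate at this depth. Cells of 1 library are not replicates, so no test is given. In E9.5 middle Epcam-negative cells, 0 of 38 had UMIs of the chromosome 13 cluster alone, 16 had the chromosome 8 cluster alone and 19 had both. In E10.5 middle Epcam-negative cells these numbers were 54, 25 and 18 of 302. Both sets are on all UMIs, at median depths of 24234 UMIs at E9.5 and 5206 UMIs at E10.5. They are therefore not comparable between the stages.

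**Figure D5:**
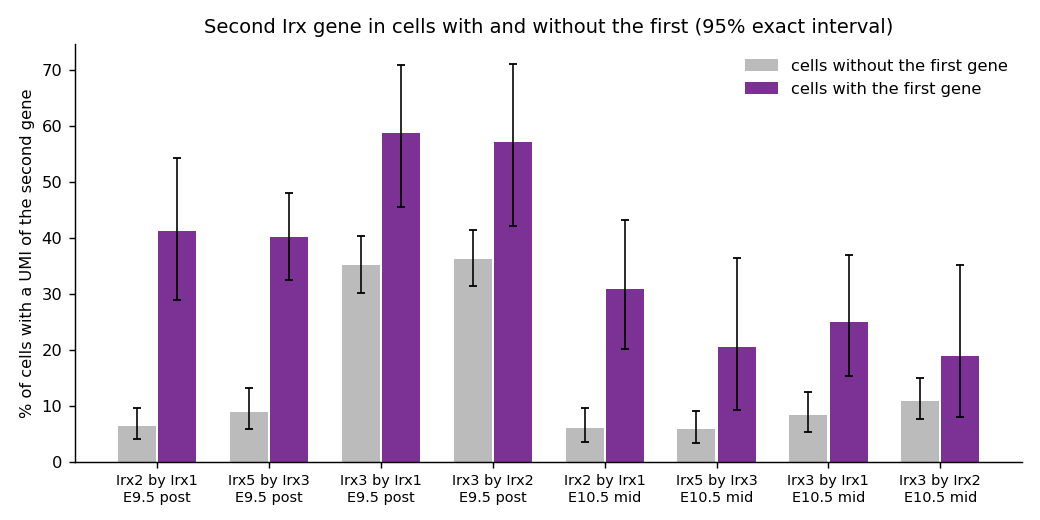
Percent of cells with a UMI of the second gene (y axis) among cells without (grey) and with the first gene (purple), for 4 pairs in the E9.5 posterior and E10.5 middle libraries (x axis; post, posterior; mid, middle), on all UMIs; bars are exact 95% binomial intervals. Irx2 by Irx1 at E9.5 posterior is 41.3% against 6.48%.

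The genes most like each member over 13 sums (libraries split by Epcam class, at least 5 cells, 10 CPM added before the log2 scale) were ranked by Spearman's rho, as a description; the sums share depth and cells of 1 stage sample. For Irx1 they were Chchd1 (0.956), Med30 (0.907), Snrpf, Hoxb2 and Cfap20, and for Irx2 they were Irx1 (0.901), Mrpl34 (0.879), Asf1a, Chchd1 and Selenoh, out of 5351 or 5352 genes. For Irx3 they were Npm3 (0.951), Rnf181 (0.929), M6pr, Ccne2 and Cenps, and for Irx5 they were Tbx1 (0.918), Paip2 (0.830), Npm3, Cenps and Prrx2. Irx2, Irx3 and Irx5 did not reach the levels set for this ranking (a mean of 20 CPM and 100 counts at each stage). Outside it, the coefficient was 0.901 between Irx1 and Irx2 and 0.890 between Irx3 and Irx5, which would place each pair among the first 3 for Irx1 and for Irx5, and 0.522 between Irx1 and Irx3.

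Genes around the clusters gave no call by edgeR in any comparison. Within 1 Mb of the chromosome 13 cluster 15 other genes were in the matrices and 10 were tested for position, and within 1 Mb of the chromosome 8 cluster 12 and 5. Fto, next to Irx3, whose introns hold enhancers that act on Irx3, and Rpgrip1l are among them. Posterior against middle in Epcam-negative cells called 0 of 10 and 0 of 5 by edgeR and by DESeq2, with 0 at an unadjusted p under 0.05. In Epcam-positive against Epcam-negative cells edgeR called 0 of 8 and 0 of 5, with 2 of each at an unadjusted p under 0.05, and DESeq2 called 1 and 0. A p above the threshold does not show that a gene was unchanged.

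Other TALE genes (Meis, Pbx, Pknox and Tgif), which encode relatives and partners of homeodomain factors, also gave no call along the positions. For posterior against middle in Epcam-negative cells 0 of 9 tested were called by edgeR or DESeq2 and 0 had an unadjusted p under 0.05; Meis2 had a log2 fold of −0.38 ± 0.25, with 229 to 361 CPM over the 7 libraries. Between Epcam classes 2 of 9 were called by edgeR, where 5.23% of 8859 genes were called (3.3% higher and 1.93% lower), and DESeq2 called neither. Pbx3 fell in Epcam-positive cells (−0.90 ± 0.21, adjusted p = 0.00990, edgeR), and Tgif1, a repressor in TGF-beta signalling, rose (0.50 ± 0.14, adjusted p = 0.0427, edgeR). The call of Tgif1 was lost without any 1 of the 6 libraries (adjusted p 0.0538 to 0.199), and that of Pbx3 after thinning (adjusted p = 0.520).

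Of the heart genes listed as partners or targets of Irx factors, 9 were tested for posterior against middle in Epcam-negative cells. There Gata4, a cardiac zinc finger gene, and Myh6, the atrial myosin gene, rose and 1 fell, beside 0.369% of 8950 genes called. DESeq2 called 2. Myh6 was at 0 CPM in both middle libraries and at 60.7 and 11.02 CPM in the posterior libraries, all cells. The gene that fell, the chemokine gene Cxcl12, had a log2 fold of −1.35 ± 0.25 (adjusted p = 0.0325, edgeR). Gata4 rose by 3.86 ± 0.44 (adjusted p = 0.000855). Cxcl12 lost its call without the E9.5 middle (−1.26, adjusted p = 0.829) or E10.5 middle library (−1.42, adjusted p = 0.261), and Myh6 without the E9.5 middle library (adjusted p = 1.00). Posterior against anterior called Tbx5 and Gata4 higher and 0 lower by edgeR. These were 2 of 10 tested in all cells (0.295% of genes called) and 2 of 9 in Epcam-negative cells (0.335%). The call of Gata4 was not kept in every fit with a library left out. Between Epcam classes 0 of 10 rose and 4 fell in Epcam-positive cells, where 3.3% of 8859 genes were called higher and 1.93% lower. Those that fell by edgeR were Hand2 (−1.22 ± 0.34, adjusted p = 0.0390), Tbx5 (−1.23 ± 0.24, adjusted p = 0.00221), Nkx2-5 (−0.91 ± 0.25, adjusted p = 0.0306) and Cxcl12 (−1.32 ± 0.20, adjusted p = 0.000176). Hand2 lost its call without the E9.5 anterior (−0.79, adjusted p = 0.124) or outflow tract library (adjusted p = 0.116), and Nkx2-5 without the E9.5 posterior (−0.22, adjusted p = 0.908) or outflow tract library (adjusted p = 0.0947); DESeq2 called neither.

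Signals known to act upstream of Irx genes were tested likewise. From middle to posterior in Epcam-negative cells 0 of 8 rose and 2 fell, beside 0.369% of 8950 genes called. Those that fell by edgeR were Wnt5a, a noncanonical Wnt ligand (−2.41 ± 0.27, adjusted p = 0.000855), and Fgf8, a growth factor of pharyngeal tissue (−4.41 ± 0.63, adjusted p = 0.00459). Fgf8 lost its call without the E9.5 middle (−6.93, adjusted p = 1.00) or E9.5 posterior library (−3.25, adjusted p = 0.537) and after thinning (−2.80, adjusted p = 0.840). Between Epcam classes 3 of 8 were called by edgeR, beside 5.23% of 8859 genes. Shh, the hedgehog ligand of foregut endoderm, rose in Epcam-positive cells (6.35 ± 0.47, adjusted p = 3.85e-09, edgeR). Wnt5a (−1.76 ± 0.27) and Aldh1a2, which makes retinoic acid (−1.07 ± 0.23), fell (adjusted p = 0.000146 and 0.00524, edgeR). Thinning ended the call of Wnt5a (−1.29, adjusted p = 0.285). Shh is also on the list of epithelial markers. Posterior against anterior called 2 of 9 in all cells, where 0.295% of genes were called. Aldh1a2 rose (7.35 ± 0.77, adjusted p = 0.00656, edgeR), from 0 and 3.94 CPM in the anterior to 141 and 91.9 CPM in the posterior libraries, and Fgf8 fell. In Epcam-negative cells 3 of 8 were called (0.335% of genes): Aldh1a2 rose, and Fgf8 and Wnt5a fell. The calls of Fgf8 and Wnt5a were not kept in every fit with a library left out.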

How the data were processed

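Single-cell RNA was counted in 7 position libraries of 2 stage samples. The authors dissociated the tissue with trypsin and made 10x Chromium libraries, per the labels' protocols, and used Cell Ranger 3.0, Seurat and mm10, per the submitters' processing notes; the annotation version is not given in the sources used here. Both deposited matrices hold whole-number UMI counts, without normalization. Every deposited cell was kept, and its position was read from its barcode suffix.

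Counts were summed per library and Epcam class (at least 1 Epcam UMI, and at least 5 cells in a sum). The quasi-likelihood test of edgeR 4.0.16, run in R 4.3.3, was applied to these sums after filterByExpr and TMM scaling, with Benjamini-Hochberg adjustment, with the stage as a term for position and the library as a term for Epcam class. Posterior minus middle, posterior minus anterior and middle minus anterior came from 1 fit and share libraries. The scripts were tested on simulated data. Stages and the outflow tract have no test; folds there carry exact conditional intervals, levels exact Poisson and shares exact binomial (Clopper-Pearson) intervals, at 95%.

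The named genes were the 6 Irx genes, the members of fixed lists (other TALE genes, partners or targets, upstream signals, genes within 1 Mb of either cluster) that passed a threshold and up to 3 others, and the 5 genes most like each Irx gene (Spearman's rho on log2(CPM + 10), genes with a mean of at least 20 CPM and at least 100 counts at each stage). The members and lists were chosen with earlier results of these data known.

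Alternatives were RLE size factors, no filter, DESeq2 1.42.0, leaving out each library, no stage or library term, other class rules, sums per stage sample, removal of doublets marked by Scrublet (scanpy 1.11.5), and thinning each cell to 4500 UMIs, which left out 8 E9.5 and 134 E10.5 cells and set the Epcam classes anew. Doublets were not removed otherwise. Scrublet marked 54.8% to 97.8% of cells in the 3 smallest libraries, where it did not work, so removing doublets only in the 4 libraries marked under 10% was added after seeing the data, as were thinned and re-classed stage values and shares.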

Additional observations from a re-analysis of the deposited data

Results flagged for a closer look

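On all UMIs, Irx3 went opposite ways between Epcam classes at the 2 stages. Its mean log2 fold of Epcam-positive over Epcam-negative cells was −0.96 at E9.5, with folds of 0.546, 0.341 and 0.735 in the anterior, middle and posterior libraries, and 1.33 at E10.5, with folds of 2.08 (exact interval 1.00 to 4.06) in the middle and 3.06 (1.33 to 7.07) in the posterior library. Every library with at least 10 cells of each class followed its stage on all UMIs. After thinning, with classes set anew, the E9.5 posterior library turned, to 49.9 CPM in Epcam-positive against 38.2 CPM in Epcam-negative cells (11 and 62 counts). The difference between the stages was not tested, and stage cannot be told apart from sample, depth or sex here.

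On all UMIs, Irx2 went opposite ways between stages in the 2 classes. Its mean log2 fold of E10.5 over E9.5 over the middle and posterior libraries was 0.38 in Epcam-negative cells, where both intervals include no difference, and −0.90 in Epcam-positive cells, with folds of 0.358 (0.164 to 0.700) in the middle and 0.797 (0.392 to 1.49) in the posterior library. After thinning, the Epcam-negative log2 fold was 0.72 in the middle and −0.81 in the posterior library. The posterior value rests on 3 counts at E10.5 and 5 at E9.5 and lies within the counting interval on all UMIs. Whether the opposite direction holds at matched depth cannot be told from these counts. The difference between the classes was not tested. No group held 4 or more samples, so single samples were not screened for standing apart.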

How the results depend on the processing

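With 1 sample per stage the labels give no replicate number that pairs samples; classes were compared within libraries and positions within stages. Counts of called genes moved with the settings. Posterior against anterior in all cells called 29 genes, 260 without the filter, 45 with DESeq2, 113 without Scrublet doublets, 0 without the stage term and 95 to 332 when 1 library was left out. Posterior against middle called 19, and in the same order 178, 33, 108, 0 and 37 to 231. Middle against anterior called 0, and 64, 4 and 30 in the first 3 of these, 2 after thinning and 14 to 123 with 1 library left out. In Epcam-negative cells, posterior against anterior called 30 genes, 170 without the filter, 53 without Scrublet doublets and 85 to 188 with 1 library left out; posterior against middle called 33, and likewise 160, 219 and 26 to 222. Epcam class called 463 genes, 855 without the filter, 121 after thinning, 819 with 5 epithelial genes, 38 without the library term and 874 from sums per stage sample. The interaction called 0, 79 without the filter, 1 with DESeq2, 25 with 5 epithelial genes and 24 to 141 with 1 library left out. Where a position is left with 1 library, that library is assumed to vary like the others.

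Some signs turned. Without Scrublet doublets, which removes most cells of the small libraries, posterior against anterior in Epcam-negative cells gave 6.22 for Irx1, 5.11 for Irx2, 1.21 for Irx3, 5.55 for Fgf8 and 8.45 for Wnt5a. With 1 library left out, posterior against anterior gave −6.06 to 4.01 for Fgf8 in all cells and −5.35 to 0.58 in Epcam-negative cells, turned without the E9.5 anterior library. The interaction then gave −1.34 to 2.14 for Irx3 and −1.16 to 1.29 for Irx5, both turned without the E9.5 middle library, and −0.64 for Irx5 after thinning. The E10.5 over E9.5 log2 fold of Irx2 in posterior Epcam-negative cells went from 0.17 to −0.81 after thinning, within its counting interval, and Irx3 in the thinned E9.5 posterior library was at 49.9 CPM in Epcam-positive against 38.2 CPM in Epcam-negative cells, where all UMIs gave 25.3 against 34.4 CPM. The cause was not tested. The chromosome 13 share of E9.5 Epcam-positive cells was 65.6% after thinning and 63.8% with 5 epithelial genes. Thinned co-detection in the E9.5 posterior library was 14.3% and 2.02% for Irx2 with and without Irx1, and 11.5% and 2.58% for Irx5 with and without Irx3. Adding 1 CPM in place of 10 CPM for the genes most like each Irx gene leaves ranks as they are by construction, so it tests nothing. Depth limits the E10.5 outflow tract and anterior libraries most, where Irx2, Irx3 and Irx5 had 3 or 4 counts.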
